A study of Mus musculus with 6 samples.

Results

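The genes of glycolysis, lactate handling and glycogen metabolism were followed in cultured mouse astrocytes labelled wild type or ADGRB1 knockout. They are 32 genes named by symbol, and all 32 were found among the 24318 gene symbols of the count table. All 32 also passed the filter on low counts that left 14131 genes for testing. The cells came from mouse brain, and poly-A RNA was sequenced in bulk in 3 wild-type (WT) libraries and 3 libraries labelled ADGRB1 KO (KO). ADGRB1 is an adhesion receptor with a role in engulfment. No treatment is named for either group. The labels give no strain, age, sex, allele or deleted part of the gene. They do not say either whether the 3 libraries of a genotype came from separate cultures, and the p-values then reflect library-to-library spread that may be technical.

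Glycolysis turns glucose into pyruvate through a chain that runs from hexokinase to pyruvate kinase. Pyruvate is then either reduced to lactate by lactate dehydrogenase or sent into mitochondria, where the pyruvate dehydrogenase complex feeds it to respiration. Astrocytes are known as a glycolytic cell type of the brain, as exporters of lactate through monocarboxylate transporters, and as its main store of glycogen, which phosphorylases break down.

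The libraries held 17460086 to 20334440 counts. Adgrb1, the targeted gene, stood at 327 ± 33.1 CPM (counts scaled to library size with the TMM method) in WT and 138 ± 20.3 CPM in KO (SD, n = 3 each), and every KO library lay below every WT library. On the log2 scale KO stood -1.24 ± 0.16 (SE) from WT, and the edgeR adjusted p of 0.0684 means that the targeted gene itself did not pass the threshold of 0.05. Transcript of Adgrb1 was thus still counted in every KO library, at 117 to 158 CPM, and with the deleted part unknown these counts do not show whether the protein is absent. The 12 astrocyte markers summed to 27990 to 31910 CPM in WT and 31150 to 36580 CPM in KO. Markers of other glia were present as well: 11 markers of mature oligodendrocytes summed to 7612 to 14830 CPM in WT and 11240 to 15140 CPM in KO, and 11 microglia markers to 1485 to 2111 and 1259 to 1583 CPM. In bulk RNA fewer cells of one type and less RNA per cell cannot be told apart. The libraries also differed in how levels followed the GC content of genes. The Spearman correlation of GC content with each gene's deviation from its mean over libraries was above 0 in the GC-high libraries. These are WT replicate 2 (0.0563) with KO replicates 1 (0.388) and 2 (0.355). The correlation was below 0 in the GC-low libraries, which are KO replicate 3 (-0.394) with WT replicates 1 (-0.16) and 3 (-0.334). The only WT library of the GC-high set thus had a weaker trend than the KO libraries beside it.

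No member passed an adjusted p of 0.05. By the quasi-likelihood test of edgeR with Benjamini-Hochberg adjustment over all 14131 genes, 0 of the 32 members were called in either direction, where the share called among all genes was 0%, and the smallest adjusted p of a member was 0.789. At an unadjusted p under 0.05, 0 members were higher in KO (2.34% of all genes) and 1 was lower (3.83% of all genes). That member was Hk2. The 3 WT and 3 KO libraries did not overlap for 0 members in the higher direction (5.28% of all genes) and for 2 in the lower direction (5.87% of all genes). DESeq2 called 0 members too, and with it 1 member, Pygb, was higher and 1, Hk2, lower at an unadjusted p under 0.05, where 2.72% and 4.31% of all genes were. The signs leaned one way: 25 of 32 members had a log2 fold change (KO over WT) above 0, as had 51.9% of all genes, and the members' median was 0.18 against 0.012 over all genes tested. The range over members was -0.62 to 0.36. In simulated data the edgeR test recovered only 5.47% of genes with a 1.5-fold change. The lack of calls therefore does not show that members were unchanged.

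Levels between genes are compared as CPM per kb of exon, which depends on the annotated length and not on the reads' actual transcripts. In WT, Ldhb stood highest at 555 CPM per kb, then Gapdh at 495, Aldoa at 297, Eno1 at 221, Pygb at 219 and Pfkm at 213. The lowest were the monocarboxylate transporter genes Slc16a3 at 0.539 and Slc16a7 at 0.242 CPM per kb. Hk2, at 3.97 CPM per kb, lay far below Hk1, at 24.9.

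**Figure D1:**
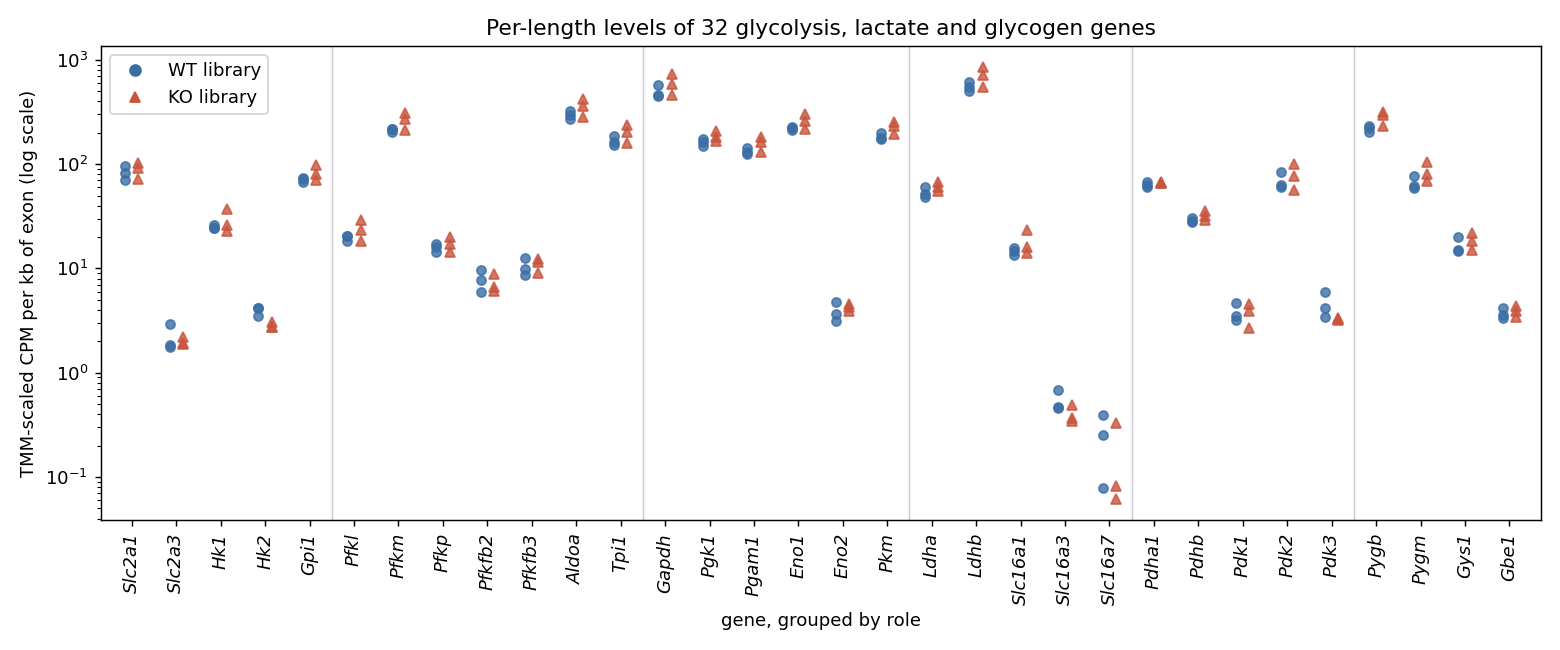
TMM-scaled CPM per kb of exon (vertical axis, log scale) of each of the 32 genes (horizontal axis, grouped by role) in each library, with WT as circles and KO as triangles. Ldhb and Gapdh stand at the top, Slc16a3 and Slc16a7 at the bottom, and for all but Hk2 and Pdk3 the ranges of both groups overlap.

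Hexokinases trap glucose in the cell by phosphorylation. Hk2, the inducible hexokinase, held 25.0, 20.97 and 25.2 CPM in WT replicates 1, 2 and 3 and 18.2, 16.3 and 16.3 CPM in the KO libraries. All KO values were below all WT values. The log2 fold change of Hk2 was -0.48 ± 0.19 (SE), and edgeR gave an unadjusted p of 0.0264 and an adjusted p of 0.789. The difference in log2 CPM was -0.28 among the GC-high libraries and -0.62 among the GC-low libraries. Under the 17 alternatives run, the log2 fold change stayed between -0.57 and -0.44, but the unadjusted p was 0.0694 without WT replicate 1, 0.0876 without WT replicate 3, 0.0759 without KO replicate 2 and 0.0533 without KO replicate 3. Hk2 lies on chromosome 6 at 82725025 to 82774454 (GRCm38, minus strand), and its exons overlap no other annotated gene.

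Hk1, the constitutive hexokinase of brain, held 222, 206 and 208 CPM in WT and 318, 222 and 194 CPM in KO. The KO libraries lay on both sides of the WT libraries, with KO replicate 1 far above and KO replicate 3 below. The log2 fold change was 0.20 ± 0.19 with all libraries and -0.039 without KO replicate 1. Hk1 supplied most hexokinase transcript per unit length, 86.2%, 87.3% and 85.3% of the Hk1 and Hk2 total in WT and 92.4%, 90.5% and 89.3% in KO. The share was higher in each KO library than in each WT library, 90.7% ± 1.59 against 86.2% ± 1.02 (SD, n = 3 each). The two-sided exact permutation p was 0.1, the smallest that 3 against 3 libraries allow, and 0.714 after Benjamini-Hochberg adjustment over the 10 families compared.

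Several markers of other glia also stood lower in KO, though none passed after adjustment. Of 9 oligodendrocyte precursor markers, 9 had a log2 fold change below 0 and 7 an unadjusted p under 0.05, where 3.83% of all genes were lower. The 9 markers summed to 3324 to 4586 CPM in WT and 2332 to 3702 CPM in KO. Of 11 mature oligodendrocyte markers 9 and of 11 microglia markers 4 were lower at an unadjusted p under 0.05, beside the same 3.83% of all genes. The other 2 oligodendrocyte markers, the myelin genes Mbp (0.53 ± 0.29) and Mobp (0.15 ± 0.27), were above 0, and Mbp, at 7442 ± 2926 CPM in WT against 10709.6 ± 1811 in KO, made up most of the summed level given above. The part of these cells in the Hk2 difference was not tested.

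The promoters of the hexokinase and lactate dehydrogenase pairs are shown because Hk2 and Ldha are textbook targets of the hypoxia factor HIF, and because Hk2 was the member below 0.05 by unadjusted p. Each line gives the 250 bases before an annotated RefSeq start (GRCm38.p6), 5′ to 3′ in the direction of the gene. Letters of ACGTG, a form of the HIF core motif, are in capitals. The motif searched was ACGTG on both strands, so that CACGT is the same motif on the other strand and CACGTG holds both, overlapping. GCGTG, the other form of the core, was not searched.
Hk2 (chr6:82774455-82774704, minus strand): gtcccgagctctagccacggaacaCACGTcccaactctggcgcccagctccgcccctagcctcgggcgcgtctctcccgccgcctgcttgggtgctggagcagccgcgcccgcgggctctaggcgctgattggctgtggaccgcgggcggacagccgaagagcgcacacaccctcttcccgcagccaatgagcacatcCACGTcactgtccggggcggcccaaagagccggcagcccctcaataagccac
Hk1, first start (chr10:62379909-62380158, minus strand): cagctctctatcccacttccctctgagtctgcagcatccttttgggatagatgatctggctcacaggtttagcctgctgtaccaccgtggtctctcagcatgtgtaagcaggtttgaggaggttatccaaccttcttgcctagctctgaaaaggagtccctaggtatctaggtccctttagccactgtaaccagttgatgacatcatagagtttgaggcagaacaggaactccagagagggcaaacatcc
Hk1, second start (chr10:62340422-62340671, minus strand): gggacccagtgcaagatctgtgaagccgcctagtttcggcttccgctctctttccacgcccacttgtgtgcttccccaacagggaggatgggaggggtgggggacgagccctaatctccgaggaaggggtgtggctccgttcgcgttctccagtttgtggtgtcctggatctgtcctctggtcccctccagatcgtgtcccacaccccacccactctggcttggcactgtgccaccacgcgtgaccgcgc
Ldha, first start (chr7:46845554-46845803, plus strand): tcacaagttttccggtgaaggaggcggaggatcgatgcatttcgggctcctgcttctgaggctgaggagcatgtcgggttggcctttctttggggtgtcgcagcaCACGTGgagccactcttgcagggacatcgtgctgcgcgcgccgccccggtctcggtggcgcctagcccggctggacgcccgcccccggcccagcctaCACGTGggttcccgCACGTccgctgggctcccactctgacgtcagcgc
Ldhb (chr6:142507958-142508207, minus strand): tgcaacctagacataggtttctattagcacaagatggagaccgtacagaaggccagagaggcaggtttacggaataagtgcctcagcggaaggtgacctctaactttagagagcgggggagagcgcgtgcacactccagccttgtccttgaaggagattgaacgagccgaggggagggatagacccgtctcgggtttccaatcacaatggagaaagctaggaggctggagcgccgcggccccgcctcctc

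Hk2 had 2 matches and Ldha, at the first of its 2 annotated starts, 5, counting both strands of each CACGTG stretch. Neither Hk1 window, nor the second Ldha window, nor the Ldhb window held ACGTG or CACGT. The unsearched form GCGTG, on either strand, does stand in the second Hk1, second Ldha and Ldhb windows. These windows are therefore not free of the HIF core. Over the 30 members with a promoter entry, 17 (56.7%) had the motif in at least 1 window, against 18.5% of all 27025 gene symbols in the same table, and by window the shares were 46.7% of 45 and 16.6% of 32851. A match is a run of letters and no evidence that a factor binds there. Members with the motif stood on both sides of 0 in the KO comparison, among them Hk2 at -0.48 and Ldha at 0.19 on the log2 scale.

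Slc2a1, the glucose transporter GLUT1 and the entry gene of highest per-length level, held 287, 334 and 249 CPM in WT and 359, 321 and 255 CPM in KO. The groups overlapped throughout, with a log2 fold change of 0.10 ± 0.17. Slc2a3, the neuronal transporter GLUT3, was at 15.9 ± 4.79 CPM in WT against 14.5 ± 1.33 in KO, and Slc2a1 made up 97.4% ± 0.447 and 97.8% ± 0.303 of the pair per length. Gpi1, which turns glucose 6-phosphate into fructose 6-phosphate, was at 457 ± 20.3 CPM in WT against 534 ± 90.2 in KO (0.22 ± 0.16).

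Phosphofructokinase commits sugar to glycolysis, and its muscle-type gene Pfkm was the main form in these cultures. Pfkm held 725, 726 and 683 CPM in WT and 1027, 903 and 709 CPM in KO. KO replicates 1 and 2 lay above all WT libraries and KO replicate 3 lay among them. The log2 fold change was 0.31 ± 0.16 (edgeR adjusted p = 0.825), and by GC trend the difference in log2 CPM was 0.41 for the GC-high and 0.011 for the GC-low libraries. Pfkm lies on chromosome 15 at 98092589 to 98132451 (GRCm38), and Adgrb1 on the same chromosome at 74516195 to 74589465.

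Pfkp, the platelet type, held 216, 232 and 194 CPM in WT and 267, 229.7 and 194 CPM in KO. Shares here are per kb of annotated exon, which spans 13401 bases for Pfkp, 6675 for Pfkl and 3340 for Pfkm. Their size depends on these lengths. Before division by length, WT replicate 1 had 3943 counts of Pfkp, 2511 of Pfkl and 13263 of Pfkm. The share of Pfkp in the 3 phosphofructokinase genes was 6.34%, 6.79% and 6.11% in WT and 5.59%, 5.52% and 5.92% in KO. That of Pfkm was 85.6%, 85.3% and 86.2% in WT and 86.2%, 87.0% and 86.7% in KO. Neither share overlapped between the groups, but for Pfkm WT replicate 3 (86.2%) and KO replicate 1 (86.22%) nearly met. Shares of a family have a fixed total, so the 2 separations are not independent. The means were 85.7% ± 0.474 and 86.6% ± 0.400 for Pfkm and 6.41% ± 0.345 and 5.68% ± 0.217 for Pfkp, and these 2 shares were not tested. Pfkl, the liver type, was at 131 ± 8.38 and 157 ± 37.0 CPM and made up 7.91% ± 0.206 and 7.69% ± 0.435 of the family (exact permutation p = 0.5).

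Pfkfb2 and Pfkfb3 encode bifunctional enzymes that set the level of an activator of phosphofructokinase. Pfkfb2 was at 56.9 ± 13.6 CPM in WT against 52.1 ± 11.2 in KO, and Pfkfb3 at 78.4 ± 15.4 and 83.2 ± 13.1 CPM. WT replicate 3 was the highest library for both. Aldoa, an aldolase, held 862, 946 and 781 CPM in WT and 1231, 1047 and 819 CPM in KO (0.26 ± 0.18), with KO replicate 1 highest and WT replicate 3 lowest. Tpi1, triose phosphate isomerase, was at 462 ± 42.3 and 553 ± 106 CPM (0.26 ± 0.17).

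Gapdh, often used as a reference gene in expression assays, held 1892, 2384 and 1864 CPM in WT and 3006, 2452 and 1919 CPM in KO. Its highest WT library came close to the second KO library and its lowest KO library lay among the WT values, so the groups overlapped (log2 fold change 0.26 ± 0.19, edgeR adjusted p = 0.833). Pkm, pyruvate kinase, was at 924 ± 65.7 CPM in WT against 1130 ± 141 in KO (0.29 ± 0.15), Eno1, the main enolase, at 1186 ± 36.5 and 1398 ± 231 CPM (0.24 ± 0.16), and Pgk1, phosphoglycerate kinase, at 364 ± 25.3 and 418 ± 46.8 CPM (0.20 ± 0.14). Pgam1, phosphoglycerate mutase, was at 264 ± 18.8 and 315 ± 51.8 CPM (0.26 ± 0.16). Eno2, the neuronal enolase, was at 18.1 ± 3.80 and 19.8 ± 1.53 CPM and made up 1.71% and 1.61% of enolase per length. The 11 neuron markers tested, 8 of them above 0, summed to 468.5 to 489 CPM in WT and 396 to 566 CPM in KO.

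**Figure D2:**
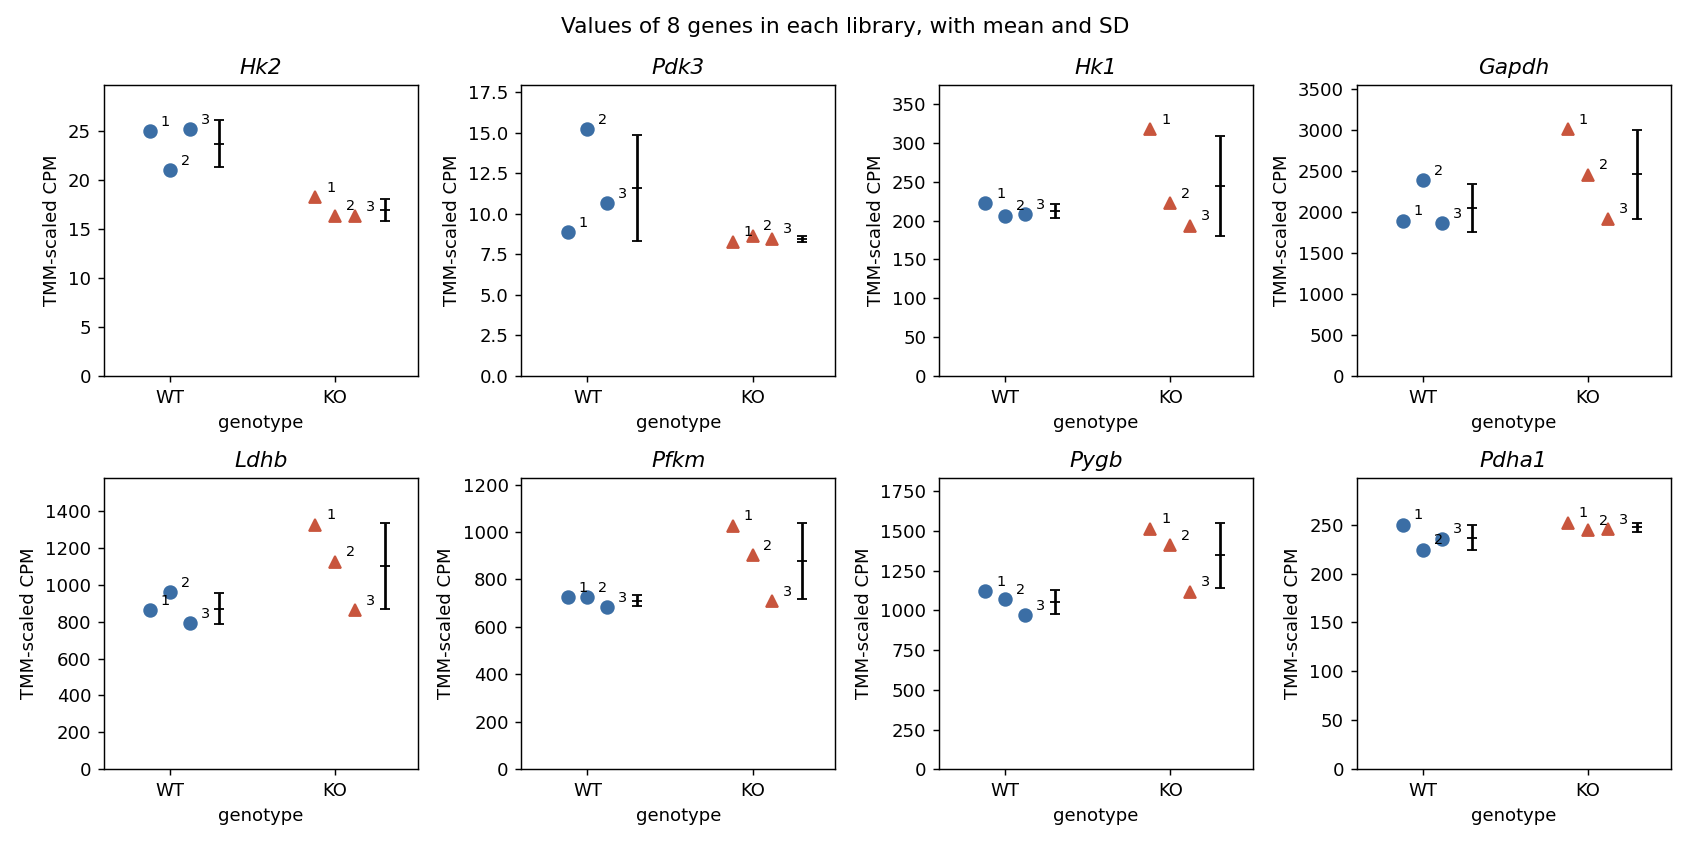
TMM-scaled CPM (vertical axes, from 0) of 8 genes in the 3 WT (circles) and 3 KO (triangles) libraries, numbered by replicate, with the group mean and SD beside the points. Hk2 and Pdk3 are separated with KO lower, Pdha1 lies between 224 and 252 CPM, and Hk1, Gapdh, Ldhb, Pfkm and Pygb are highest in KO replicate 1 with KO replicate 3 near WT.

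KO replicate 1 was the highest of the 6 libraries for 21 of the 32 members, against 24% of all genes tested, and WT replicate 3 was the lowest for 14, against 16.1%. Of the 14 genes that run from hexokinase to pyruvate kinase, KO replicate 1 was highest for 12, with Hk2 and Eno2 as the exceptions. The median deviation of members from their own mean over libraries, in log2 CPM, was 0.27 in KO replicate 1, 0.10 in KO replicate 2 and -0.12 in KO replicate 3, and -0.12, -0.02 and -0.19 in WT replicates 1, 2 and 3. Without KO replicate 1 the members' median log2 fold change was 0.076 and 20 of 32 lay above 0.

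Removing KO replicate 3 had the opposite effect. Without it, 12 members were higher at an unadjusted edgeR p under 0.05, where 6.79% of all genes were, 0 were lower (11.3% of all genes), and the median was 0.26. These were Aldoa, Eno1, Gapdh, Gpi1, Ldhb, Pfkl, Pfkm, Pgam1, Pkm, Pygb, Pygm and Tpi1, and their smallest adjusted p was 0.143. With limma voom and library weights, 8 members were higher at an unadjusted p under 0.05 (7.54% of all genes), 1 was lower (11.3%) and 0 passed after adjustment. Leaving out WT replicate 2, 1 member was higher (3.82% of all genes) and 1 lower (4.14%). Leaving out WT replicate 1, WT replicate 3 or KO replicate 2, 0 members were higher (1.2%, 1.6% and 0.948% of all genes) and 0 lower (2.54%, 3.08% and 2.39%). Leaving out KO replicate 1, 0 were higher (2.12%) and 1 lower (2.93%).

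Among the GC-high libraries the members' median KO minus WT difference was 0.17 in log2 CPM, with 25 of 32 above 0, and among the GC-low libraries it was 0.033, with 22 of 32 above 0. In each of these sets 1 genotype has a single library, and the GC trend differed in strength between the libraries of a set. The members' median GC content was 52.7% against 49.8% over all genes tested. No label names a batch, and the GC-high and GC-low sets were drawn from the sign of the GC correlation in the same counts. With the trend in GC content and length removed the median log2 fold change was 0.15. With the GC-high and GC-low libraries as batches it was 0.12. At an unadjusted p under 0.05 the first of these fits gave 1 member higher (2.82% of all genes) and 1 lower (4.24%), and the second 2 higher (3.18%) and 1 lower (5.14%). KO replicate 1 was still highest for 23 of 32 members after the trend was removed, against 28.4% of all genes, a count made after the data had been seen. Of the 12 astrocyte markers, Aldoc among them, 11 had a log2 fold change above 0, with a median of 0.25, and their sum was highest in KO replicate 1. At an unadjusted p under 0.05, 2 of them were higher (2.34% of all genes), Gfap (0.82 ± 0.26) and S100b (0.44 ± 0.16). Non-overlapping groups with KO higher were found for 3 (5.28% of all genes). Among the GC-low libraries 7 of the 12 were above 0, with a median of 0.078, and among the GC-high libraries 11, with a median of 0.29. The part of astrocyte content in the glycolytic levels was not tested.

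**Figure D3:**
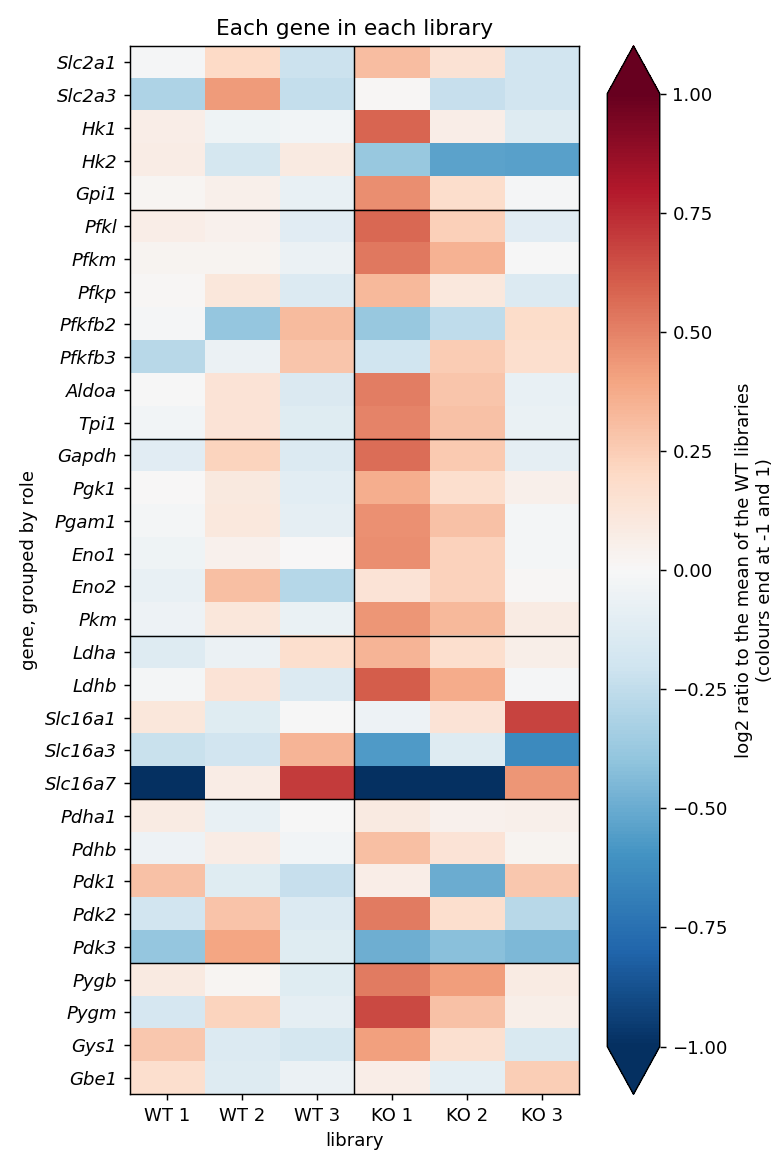
Log2 ratio of each gene in each library (columns) to the mean of the 3 WT libraries, by role (rows), in colours that end at -1 and 1. The column of KO replicate 1 is red for most genes from Hk1 to Ldhb, but blue for Hk2, Pfkfb2 and Pfkfb3, and that of KO replicate 3 is pale for most of them, and Hk2 and Pdk3 are blue in all 3 KO columns.

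Lactate dehydrogenase transcript was mainly Ldhb, the form typical of heart that is known to favour lactate use. Ldhb held 861, 959.5 and 792 CPM in WT and 1326, 1124 and 861 CPM in KO. KO replicates 1 and 2 lay above all WT libraries and KO replicate 3 lay inside their range (log2 fold change 0.34 ± 0.18, edgeR adjusted p = 0.823). Without KO replicate 1 it was 0.18. Ldha, the muscle form that is known to favour lactate production, was at 176 ± 19.4 CPM in WT against 202 ± 19.8 in KO (0.19 ± 0.14). Per length, Ldhb made up 91.2% ± 1.55 of the pair in WT and 91.9% ± 0.953 in KO, a share that differed by less than its spread (exact permutation p = 0.5).

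Among the lactate transporters, Slc16a1 (MCT1) made up 94.9% ± 1.77 of the 3 genes per length in WT and 96.9% ± 0.340 in KO. It held 70.0, 59.6 and 64.8 CPM in WT and 62.7, 71.1 and 104 CPM in KO. KO replicate 3 was the high library here, not KO replicate 1, and the log2 fold change was 0.29 ± 0.19. Without KO replicate 3 it was 0.046, and without KO replicate 1 it was 0.42. With the GC and length trend removed it was 0.39 (edgeR adjusted p = 0.541). Slc16a3 (MCT4), known as the lactate exporter of astrocytes, had 44 to 73 counts per WT library and 37 to 49 per KO library. Slc16a7 (MCT2), the neuronal form, had 17, 53 and 93 counts in WT and 14, 18 and 78 in KO, with the third replicate highest in both groups. The log2 fold changes were -0.43 ± 0.46 for Slc16a3 and -0.62 ± 0.78 for Slc16a7, with libraries of both genotypes overlapping. Leaving out 1 library, Slc16a3 ran from -0.60 (without KO replicate 2) to -0.22 (without WT replicate 3) and Slc16a7 from -1.75 (without KO replicate 3) to -0.081 (without WT replicate 3).

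The pyruvate dehydrogenase complex admits pyruvate to mitochondrial respiration. Pdha1, its E1 alpha subunit, was at 237 ± 12.7 CPM in WT against 247 ± 4.29 in KO (0.06 ± 0.13), and Pdhb, E1 beta, at 112 ± 5.25 and 125 ± 12.2 CPM (0.16 ± 0.14). Pdk2, a kinase that switches the complex off and the member of this set with the highest per-length level, held 192, 267 and 199 CPM in WT and 315, 246 and 181 CPM in KO. Both the highest and the lowest library were KO, and the log2 fold change was 0.17 ± 0.21 with all libraries and -0.051 without KO replicate 1.

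Pdk3 was the second member whose groups did not overlap. It held 8.86, 15.2 and 10.7 CPM in WT and 8.27, 8.65 and 8.48 CPM in KO. The KO libraries lay close together just below the lowest WT library, and WT replicate 2 was far above the rest. The log2 fold change was -0.45 ± 0.27 (edgeR adjusted p = 0.826), and without WT replicate 2 it was -0.22. Pdk1 was at 29.3 ± 5.85 CPM in WT against 28.9 ± 7.42 in KO. Pdk2 made up 89.2% ± 0.887 of Pdk1, Pdk2 and Pdk3 per length in WT and 91.3% ± 2.96 in KO. Pdk4, a further kinase of the complex that is not a member, is left out of this share. It was at 69.6 ± 13.2 CPM in WT against 60.2 ± 4.00 in KO.

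Glycogen phosphorylases release glucose units from glycogen. Pygb, the brain form, held 1121, 1071 and 969.8 CPM in WT and 1514, 1409 and 1116 CPM in KO. KO replicate 3 lay just under WT replicate 1, and otherwise KO was above WT (log2 fold change 0.35 ± 0.16, edgeR adjusted p = 0.803). The difference was 0.45 among GC-high and 0.10 among GC-low libraries. Pygm, the muscle form that astrocytes also express, held 189, 247 and 199 CPM in WT and 334, 259 and 221 CPM in KO, with WT replicate 2 above KO replicate 3 (0.36 ± 0.18, edgeR adjusted p = 0.819). Without KO replicate 1, Pygm was at 0.17. Pygb made up 76.93% ± 2.80 of the pair per length in WT and 76.95% ± 1.63 in KO (exact permutation p = 1). Of the enzymes that build glycogen, Gys1, glycogen synthase, was at 79.5 ± 14.0 and 88.6 ± 17.3 CPM (0.16 ± 0.19), and Gbe1, the branching enzyme, at 19.8 ± 2.20 and 20.9 ± 2.48 CPM (0.08 ± 0.19).

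**Figure D4:**
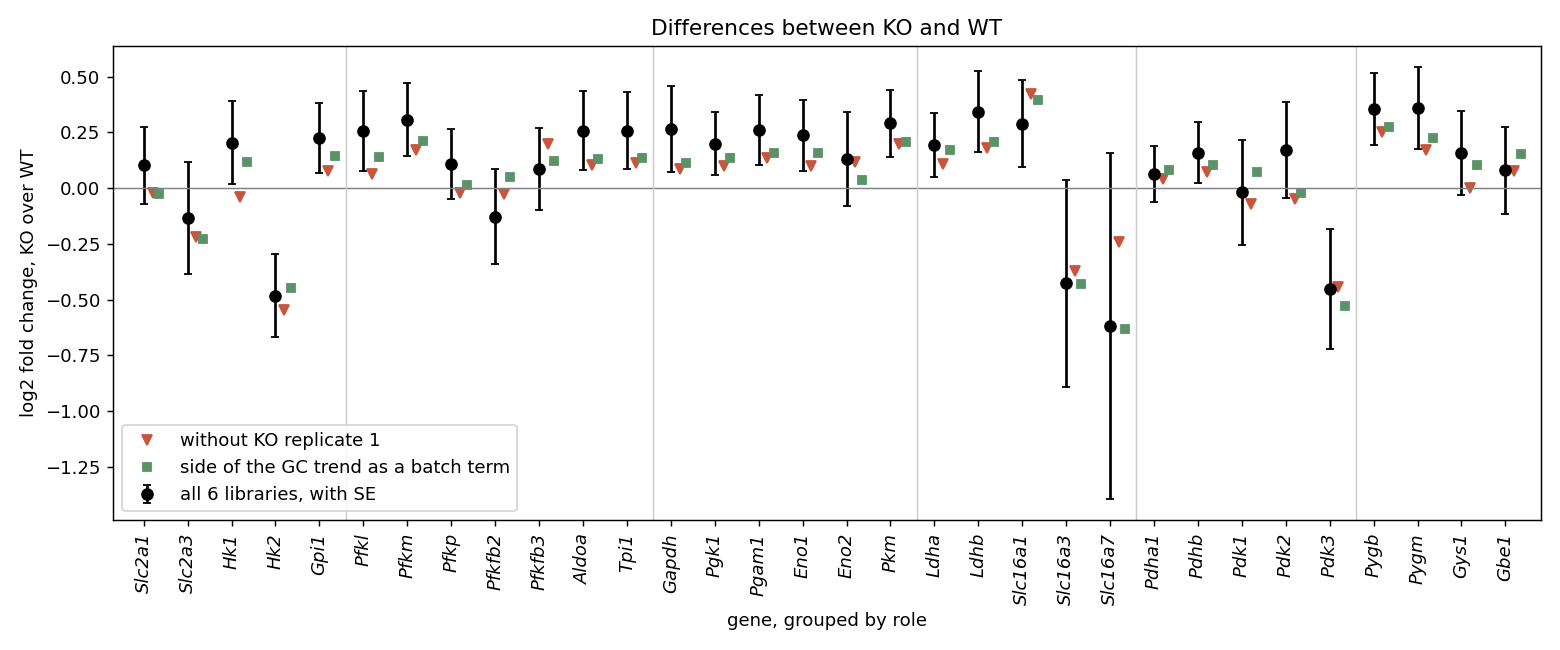
Log2 fold change (KO over WT) of each gene with its standard error over all 6 libraries (black circles), without KO replicate 1 (triangles) and with GC-high and GC-low libraries as batches (squares). Most genes of the chain drop towards 0 without KO replicate 1, while Hk2 stays between -0.55 and -0.45 in all 3 fits.

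**Figure D5:**
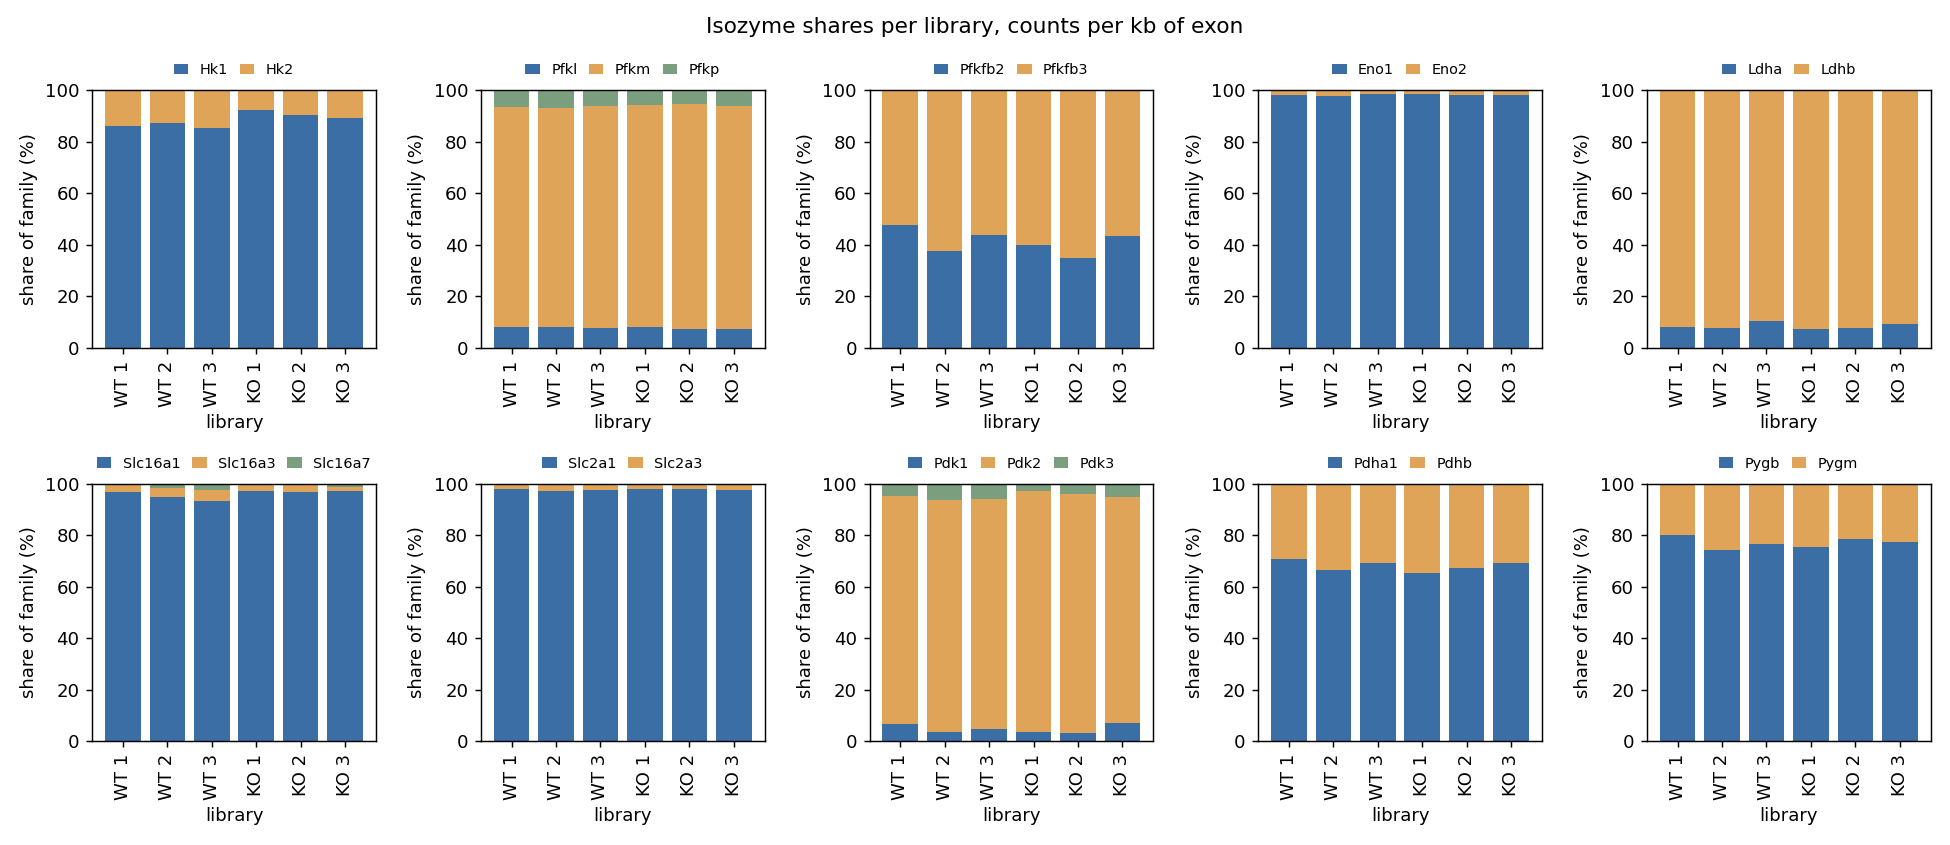
Share of each gene in its family (per cent of counts per kb of exon, vertical axes) in each library (horizontal axes) for 10 families. Families hold only genes among the members. The gene of largest share was the same in all 6 libraries of every family, and the Hk1 share was 85.3% to 87.3% in WT and 89.3% to 92.4% in KO. Pdha1 and Pdhb are subunits of one complex and not isozymes.

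Other genes of these pathways were read from lists of their known members. Aldoc, the aldolase of astrocytes, held 5797, 6186 and 5010.3 CPM in WT and 9144, 7292 and 5179 CPM in KO, with the same order of libraries as Aldoa (0.35 ± 0.21, edgeR adjusted p = 0.826), and made up 85.0% to 86.9% of Aldoa and Aldoc per length. Of 10 other glycolytic genes tested, 4 had a log2 fold change above 0, and 1 was lower at an unadjusted p under 0.05 (3.83% of all genes). It was the minor hexokinase gene Hkdc1, at 1.22 ± 0.435 and 0.169 ± 0.158 CPM (edgeR adjusted p = 0.673). The groups of Hkdc1 did not overlap, with KO lower, as for 5.87% of all genes. Of 11 other glucose and pyruvate transporters and their partners 7 were above 0. Among them was Bsg, the chaperone of the lactate transporters, at 424 ± 45.0 and 501 ± 50.2 CPM. Its groups did not overlap, with KO higher, as for 5.28% of all genes. The WT and KO libraries nearest each other were both at 466 CPM. Slc2a4, the insulin-responsive glucose transporter GLUT4, was at 8.02 ± 3.23 and 12.996 ± 5.32 CPM (0.70 ± 0.38).

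Of 8 other genes, of the pyruvate dehydrogenase complex, its regulators and pyruvate carboxylase, 3 were above 0 (Pdp2, Pdhx and Pcx). Among them 2 had non-overlapping groups with KO higher, where 5.28% of all genes had. One was Pdp2, a phosphatase that switches the complex on, at 24.4 ± 0.845 CPM in WT against 30.6 ± 0.867 in KO (0.33 ± 0.16, edgeR adjusted p = 0.819). The other, named after its values were seen, was Pdhx, a structural subunit, at 52.7 ± 1.90 and 56.6 ± 2.46 CPM. Pcx, pyruvate carboxylase, an enzyme that astrocytes are known for, was at 178 ± 19.0 and 233 ± 49.8 CPM (0.39 ± 0.18, edgeR adjusted p = 0.812). Of 22 other glycogen genes 12 were above 0, with a median of 0.03 and 0 at an unadjusted p under 0.05, and of 8 pentose phosphate genes 4 were above 0, with a median of 0.07 and again 0. Pgm2, a phosphoglucomutase that links glycogen to glycolysis, was at 304 ± 47.1 and 388 ± 94.6 CPM (0.35 ± 0.20), and Pgd, a dehydrogenase of the pentose phosphate pathway, at 69.7 ± 6.65 and 85.0 ± 12.7 CPM (0.29 ± 0.16).

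The hypoxia response shares targets with glycolysis. Of its 20 genes tested, 9 had a log2 fold change above 0, and the median was -0.09. At an unadjusted p under 0.05, 0 were higher (2.34% of all genes) and 1 lower (3.83%). That gene was Ndrg1, at 245 ± 63.9 CPM in WT against 146 ± 24.4 in KO (-0.74 ± 0.21, edgeR adjusted p = 0.582). Groups did not overlap for 2 other hypoxia genes with KO lower (5.87% of all genes) and for 0 with KO higher (5.28%). The 2, named after their values were seen, were Arnt (43.1 ± 4.16 and 36.0 ± 2.86 CPM) and Car9 (0.712 ± 0.0852 and 0.399 ± 0.118 CPM). Of 9 upstream regulators tested 2 were above 0, with a median of -0.30 and 0 at an unadjusted p under 0.05. Mlxipl, a carbohydrate-sensing transcription factor, was at 11.2 ± 3.21 and 7.69 ± 1.84 CPM. Without overlap, 1 regulator was lower in KO (5.87% of all genes), Mlxip, at 37.6 ± 4.94 and 30.6 ± 2.18 CPM. Another 1, Arrdc4, named after its values were seen, was higher (5.28%), at 7.13 ± 0.348 and 8.92 ± 1.35 CPM. No gene of these 7 lists passed an adjusted p of 0.05 with edgeR.

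Reads of several members can be shared with other genes. Exons of 13 members overlap another annotated gene, 3 of them on the same strand. A similar gene, called a copy here, is annotated for 11 members, Gapdh most of all with 108. Copies match at 90% identity or more over at least 300 bases. The only one of Pfkfb2, Gm29427, overlaps Pfkfb2 itself, and Map3k15, 1 of 2 for Pdha1, overlaps Pdha1. Copies with rows of their own in the count table had counts that equal 1.01% of those of Gapdh and 0.435% of those of Eno1 in size, and adding them left every member's direction as it was. The labels do not say how reads matching several genes were counted, and the levels of all 11 are uncertain for that reason, whether or not the copy has a row in the table. They are Gapdh, Eno1, Ldha, Ldhb, Pdha1, Pgk1, Pgam1, Pkm, Tpi1, Gpi1 and Pfkfb2.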

How the data were processed

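Poly-A RNA of mouse astrocytes (3 WT and 3 KO libraries) was sequenced from both ends (labels' protocols). The authors deposited estimated counts per gene symbol, not normalized. Per the submitters' processing notes, the tools include TopHat2 and featureCounts and the builds named are GRCm38 and mm9, with no roles. Annotation and strand setting are not stated. Values were rounded to whole numbers for testing, since 0.711% to 0.847% of those in a library were off by over 0.01. Library totals were 17460086 to 20334440 counts. No pair of libraries of a genotype agreed within counting noise (chi-square 22.3 to 89.1 per degree of freedom), so none was taken as one library deposited more than once. This does not tell separate cultures from repeated preparations.

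Groups came from the labels. KO was compared with WT over all genes by the quasi-likelihood test of edgeR 4.0.16 (R 4.3.3) with TMM, filterByExpr and Benjamini-Hochberg adjustment. The SE is the size of the log2 fold change divided by the root of F. Values are CPM with the SD over 3 libraries. GENCODE M21 (GRCm38) matched 23945 of 24318 symbols (98.5%) and gave coordinates, exonic length and GC content. Copies were transcripts of at least 90% identity over at least 300 bases (BLAST 2.17.0). Promoters are RefSeq's (GRCm38.p6), found for 30 of 32 members. The test was tried on 3 simulations of KO against WT. It recovered 5.47% of genes simulated with a 1.5-fold change, 49.3% with a 2-fold and 85.9% with a 4-fold change. Of genes simulated without a change, 0.0359% were called.

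The members and lists were chosen with earlier results of these data known. Values in every library are given for members with an unadjusted p under 0.05 or non-overlapping groups, for the member of highest per-length level in each role, and for isozymes whose shares do not overlap. Other members given by library were chosen after their values were seen. Alternatives were RLE, total counts, testing of unfiltered genes, a filter at 1 CPM, DESeq2 1.42.0, limma 3.58.1 voom, bias-adjusted quasi-likelihood, the replicate block, 2 treatments of the GC trend, added gene copies and leaving out each library.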

Additional observations from a re-analysis of the deposited data

How the results depend on the processing

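Under all 17 alternatives 0 members were called after adjustment. Members higher at an unadjusted p under 0.05 numbered 1 by DESeq2 (2.72% of all genes were higher) and 8 by limma voom (7.54%). There was 1 after removal of the GC and length trend (2.82%) and 2 with GC-high and GC-low libraries as batches (3.18%). Leaving out 1 library, 0 to 12 members were higher (0.948% to 6.79% of all genes) and 0 to 1 lower (2.39% to 11.3%). The members' median log2 fold change was 0.10 to 0.18 under the other alternatives and 0.076 to 0.26 leaving out 1 library, lowest without KO replicate 1 and highest without KO replicate 3. Of all genes, DESeq2 called 14 higher and 62 lower, limma voom 1 and 3, the fit on unfiltered genes 2 and 4, the fit after removal of the GC trend 3 and 12, that with GC batches 14 and 74, and those leaving out 1 library 0 to 4 and 0 to 23. Adgrb1 passed after adjustment by DESeq2 (-1.24), limma voom (-1.19), on unfiltered genes (-1.24) and after removal of the GC trend (-1.29). It also passed with the replicate block and with GC batches (-1.34), which were set from the counts and not from labels. Leaving out 1 library it lay between -1.35 and -1.13 and passed without KO replicate 3 (-1.13, adjusted p = 0.0184).

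Signs turned for some members, and the cause was not tested: Pdha1 with total counts (-0.012), Gbe1 with limma voom (-0.017), Pdk1 after removal of the GC trend (0.074), and with GC batches Pfkfb2 (0.048), Slc2a1 (-0.024), Pdk1 (0.073) and Pdk2 (-0.022). Leaving out 1 library, the ranges were -0.035 to 0.25 for Pfkfb3, -0.19 to 0.17 for Pdk1, -0.27 to 0.13 for Slc2a3, -0.32 to 0.059 for Pfkfb2, -0.039 to 0.35 for Hk1, -0.021 to 0.22 for Pfkp, -0.022 to 0.23 for Slc2a1, -0.051 to 0.35 for Pdk2, -0.00068 to 0.31 for Gys1 and -0.012 to 0.17 for Gbe1.

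Same-numbered libraries correlated at 0.0873, 0.15 and 0.284 in their deviations from the group means. Differently numbered libraries were not compared in this way, so these values cannot settle whether the numbers mark pairs. The main fit did not take them as pairs, since the labels name no pairing. With the replicate block 7 genes were higher and 37 lower, 2 members (Ldhb and Pygb) were higher and 1 (Hk2) lower at an unadjusted p under 0.05, where 9.94% of all genes were in either direction, and Adgrb1 was at -1.25 (adjusted p = 0.0143). With 3 libraries a group, no member's difference passed the adjusted threshold.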
